A study of Mus musculus with 12 samples.

Results

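RNA of the organ of Corti, the strip of sensory and supporting cells in the cochlea, was compared between Clrn1-/- and wild-type mice at postnatal day 21. The libraries were taken by their genotype label alone, 3 of Clrn1-/- and 3 of wild-type mice out of 12 in the series, and every gene that passed a filter on low counts was described. In Clrn1-/- mice a loxP-flanked exon of Clrn1 had been removed in all tissues with PGK-cre, which is active from the early embryo, while Clrn2 was intact. Wild-type mice carried neither mutation and came from breedings of their own, so genotype and breeding cannot be told apart in any value below. The stria vascularis and the modiolus had been dissected away before the tissue was flash frozen, and polyadenylated RNA was sequenced with strand information. Xist, the RNA of the inactive X chromosome, lay between 114 and 254 CPM and the Y-linked gene Ddx3y between 40.5 and 63.0 CPM in all 6 libraries, so each library held RNA of both sexes. Wild-type replicate 3 held the lowest Xist and the highest Ddx3y value. The labels do not say whether replicates were separate pools of mice, and p-values therefore measure the spread between these libraries, which may be technical.

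Clarin-1, the product of Clrn1, is a membrane protein with several membrane-spanning segments that hair cells need for an intact hair bundle and for transmission at their ribbon synapses, and its loss in humans causes a form of Usher syndrome with deafness and blindness. The hair bundle is the set of stereocilia whose deflection opens the mechanotransduction channels. Inner hair cells pass the signal to the auditory neurons by glutamate release, outer hair cells amplify the sound vibration, and supporting cells around them hold the epithelium together. Macrophages, nerve fibres with their Schwann cells, and matrix-forming cells lie next to them and contribute RNA to the same sample.

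Wild-type libraries held 35978049 to 41049302 counts on genes, and Clrn1-/- libraries 31154801 to 38327913. CPM below stands for the counts of a gene per 1000000 counts of a library, scaled with edgeR's TMM method and written as mean ± SD of 3 libraries or library by library. Over- and under-expressed genes were those that changed at least 1.5-fold with a p of 0.05 or less in edgeR's quasi-likelihood test after Benjamini-Hochberg adjustment, and all adjusted p-values below come from that test over 19052 genes. Of these genes, 670 were over-expressed in Clrn1-/- mice, which is 3.52%, and 705 were under-expressed, which is 3.7%, so that 7.22% were called in either direction. The median log2 fold change of all tested genes was -0.00309. Most changes were small, with 644 of the called genes under 2-fold, while 122 over-expressed and 110 under-expressed genes changed at least 4-fold. The 3 Clrn1-/- libraries lay entirely above the 3 wild-type libraries for 20.5% of all tested genes and entirely below them for 19.8%, and for 653 and 672 of the called genes. Without the fold minimum, 13.6% of the tested genes were higher and 13.3% lower. The changed genes are described by function below, with 50 gene lists of which 4 had no called member, namely MHC presentation, the integrated stress response, the stria vascularis and cholesterol synthesis. The lists together held 260 of the called genes, 18.9% of them. In such bulk tissue, fewer cells of a type and less RNA per cell cannot be told apart.

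**Figure D1:**
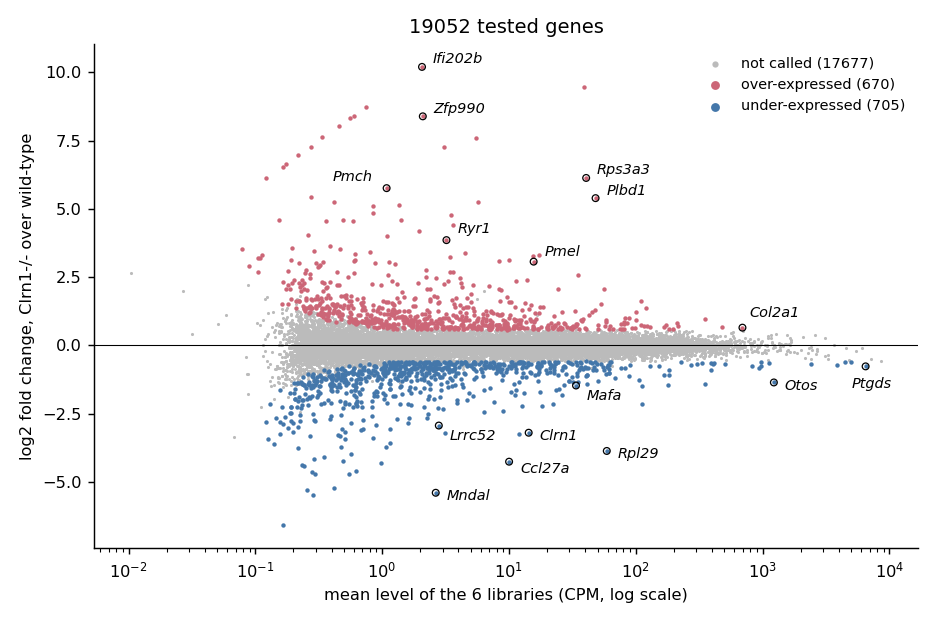
Log2 fold change of each of the 19052 tested genes in Clrn1-/- relative to wild-type mice against its mean level in the 6 libraries (CPM, log scale), with over-expressed genes in red, under-expressed genes in blue and the others in grey. The 670 over-expressed and 705 under-expressed genes spread over the whole range of levels, and the circled genes are described in the text.

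The targeted gene fell in every Clrn1-/- library. Clrn1 (ENSMUSG00000043850.15) was at 25, 23.8 and 28.6 CPM in the wild-type libraries and at 3.04, 2.69 and 2.75 CPM in the Clrn1-/- libraries, and the 2 sets lay far apart. Clrn2, its intact paralogue, was at 3.03, 1.89 and 3.24 CPM and at 0.854, 0.854 and 1.04 CPM (adjusted p = 7.4e-05), also without overlap. Clrn1 spans bases 58844028 to 58885340 of chromosome 3 in GRCm38, on the minus strand. The closest called gene, picked after its values were seen, was Mindy4b-ps, 0.0217 Mb away, which stood at 9.24, 11.1 and 11.1 CPM in wild-type and at 17.4, 21.2 and 20 CPM in Clrn1-/- libraries. Its level was 1.86-fold higher, with an adjusted p of 5.1e-06. Within 10 Mb of Clrn1, 10 of 114 tested genes were called, 8.77% of them, and beyond 20 Mb on the same chromosome 8.81% were called, so the neighbourhood of the deleted gene stood close to the rest of the chromosome. Among the called neighbours were Postn, a matrix protein at 6.63 ± 0.322 and 13.4 ± 0.924 CPM, Gpr149, an orphan receptor at 1.67 ± 0.111 and 3.17 ± 0.125 CPM, and Ptx3, a soluble pattern recognition protein at 1.49 and 3.20 CPM in wild-type and Clrn1-/- mice.

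The largest increases were in genes that wild-type libraries hardly expressed. Ifi202b, a DNA-binding protein of the interferon-inducible Ifi200 family, had no count in any wild-type library and was at 4.97, 3.83 and 3.58 CPM in Clrn1-/- libraries. Against a floor of 3 counts per wild-type library it was at least 51.1-fold higher. St6galnac1, a sialyltransferase, also had no wild-type count and was at 0.633, 1.37 and 1.32 CPM, at least 13.7-fold above the same floor. Zfp990, a zinc finger gene, had 1 wild-type count against 452 in Clrn1-/- libraries, a ratio of 464 with an exact 95% interval for counting error alone of 82.9 to 18400. Plbd1, a phospholipase B-like protein of lysosomes, changed from 2.02, 2.19 and 2.48 CPM to 78.6, 95.5 and 109 CPM, a 42.1-fold increase with an adjusted p of 1.3e-13. Its values were the most abundant of these and did not come near each other between genotypes. Atp1a4, a sodium pump subunit known from sperm, rose from 0.0525 ± 0.0507 to 1.64 ± 0.244 CPM. Gpx6, a glutathione peroxidase known from olfactory tissue, rose from 0.331 ± 0.226 to 6.96 ± 2.18 CPM, and Mmel1, a membrane metallopeptidase, from 0.129 ± 0.0911 to 2.07 ± 0.0976 CPM.

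The largest decreases were found in genes of varied function. Ccl27a, a chemokine made by epithelia, was at 18.6, 19.2 and 19.3 CPM in wild-type and at 1.26, 0.828 and 0.935 CPM in Clrn1-/- libraries, 0.0524 times the wild-type level (adjusted p = 9.3e-13). Ripor3, a gene of the family of RhoA-interacting proteins, fell from 20.1, 19.8 and 25 CPM to 2.15, 1.89 and 2.78 CPM (adjusted p = 9.0e-10). Both genes were low in all 3 Clrn1-/- libraries without overlap. Lefty1, a secreted inhibitor of Nodal signalling, fell from 1.2 ± 0.168 to 0.0489 ± 0.0475 CPM, and Tdgf1, a Nodal co-receptor, from 1.24 ± 0.240 to 0.182 ± 0.0248 CPM. B3gnt3, a glycosyltransferase, fell from 1.59 ± 0.210 to 0.206 ± 0.0790 CPM, and Pinlyp, an inhibitor of phospholipase, from 1.21 ± 0.220 to 0.139 ± 0.105 CPM.

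Hair-cell genes changed in both directions, and most of them were not called. The general hair-cell marker Myo7a, a motor protein of the bundle, was at 43.4, 47.5 and 51.3 CPM in wild-type and at 49.7, 48.9 and 47.4 CPM in Clrn1-/- libraries, with overlapping values and a log2 fold change of 0.04 (standard error 0.06). Slc26a5, the motor protein prestin of outer hair cells, was at 17.2 ± 0.634 and 18.7 ± 1.69 CPM and was not called either. Ocm, the calcium buffer oncomodulin of outer hair cells, stood at 67.1 ± 7.82 and 95.5 ± 19.0 CPM, below the fold minimum with a log2 fold change of 0.51 (adjusted p = 0.00549). Of 15 tested transcription factors of hair cells, none was over-expressed and 2 were under-expressed. Mafa, a basic leucine zipper factor, was at 46.8, 48.6 and 53.6 CPM in wild-type and at 15.8, 19.1 and 18.9 CPM in Clrn1-/- libraries. It fell by 1.47 on the log2 scale (adjusted p = 3.7e-08), with all mutant values far below the lowest wild-type value. Gfi1, a zinc finger repressor that hair cells need to survive, fell from 7.17 ± 1.48 to 3.81 ± 0.228 CPM, whereas Pou4f3, a factor of hair-cell differentiation, was at 15 ± 1.40 and 13.6 ± 0.955 CPM and was not called.

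Of 32 tested genes of the hair bundle core and its links, 3 were under-expressed and none was over-expressed, with a median log2 fold change of -0.0409, although 1 was over-expressed without wild-type replicate 1 and 2 without wild-type replicate 2. Kncn, which encodes kinocilin of the kinocilium and microtubules, was at 18.9, 18.4 and 22.2 CPM in wild-type and at 9.62, 8.85 and 11.2 CPM in Clrn1-/- libraries. The Clrn1-/- values were 0.499 times the wild-type level (adjusted p = 1.8e-05). Lmo7, a protein of the cuticular plate in which stereocilia are anchored, fell from 59.9 ± 2.24 to 34.6 ± 1.74 CPM, and Baiap2l2, which acts at stereocilia tips, from 3.78 ± 0.467 to 2.07 ± 0.231 CPM. Library size scaling alone turned the sign of this list's median, to 0.00343, and limma-voom gave 0.00602. Of 15 tested genes of the mechanotransduction complex, 2 were over-expressed and 1 under-expressed. Cdh23, a cadherin of the tip links, was at 33.0, 32.9 and 36.2 CPM in wild-type and fell to 17.8, 22.3 and 21.1 CPM, 0.601 times the wild-type level (adjusted p = 4.2e-06). Tmc2, a channel subunit of immature hair cells, rose from 0.0822 ± 0.0559 to 0.365 ± 0.0660 CPM, and Tmc1, the channel subunit of mature hair cells, from 12.4 ± 1.28 to 19.2 ± 2.09 CPM. Tmc1 fell short of the 1.5-fold minimum without Clrn1-/- replicate 3 or without wild-type replicate 1, at log2 fold changes of 0.55 and 0.56.

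At the hair-cell synapses, the changes went in both directions. Of 19 tested genes of the inner hair cell ribbon synapse, 1 was over-expressed and 3 were under-expressed, and 1 of these 3 remained without Clrn1-/- replicate 2. Slc17a8, the vesicular glutamate transporter of inner hair cells, was at 27.3, 27.9 and 32.7 CPM in wild-type and at 15.3, 15 and 17.0 CPM in Clrn1-/- libraries, 0.538 times the wild-type level (adjusted p = 4.7e-06). Cacna1d, the calcium channel subunit that triggers their transmitter release, moved the other way, from 58.0, 55.4 and 56.5 CPM to 91.3, 102 and 98.1 CPM (1.72-fold, adjusted p = 1.6e-08). Neither gene had overlapping libraries. Otof, the calcium sensor of release, was at 99.5 ± 11.1 and 82.7 ± 6.94 CPM and was not called (adjusted p = 0.0601). Of 12 tested genes of the outer hair cell motor and its efferent input, 1 was over-expressed and 3 were under-expressed, the former being 3 without Clrn1-/- replicate 1 and 2 without Clrn1-/- replicate 2 or wild-type replicate 3. Chrna1, an acetylcholine receptor subunit known from muscle, was the over-expressed one and rose from 2.42 ± 0.659 to 6.32 ± 0.647 CPM. Chrna10, a subunit of the efferent receptor of outer hair cells, fell from 16.2 ± 0.797 to 9.50 ± 1.78 CPM, and Lbh, a transcriptional regulator rich in outer hair cells, from 63.0 ± 1.57 to 33.9 ± 3.43 CPM.

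**Figure D2:**
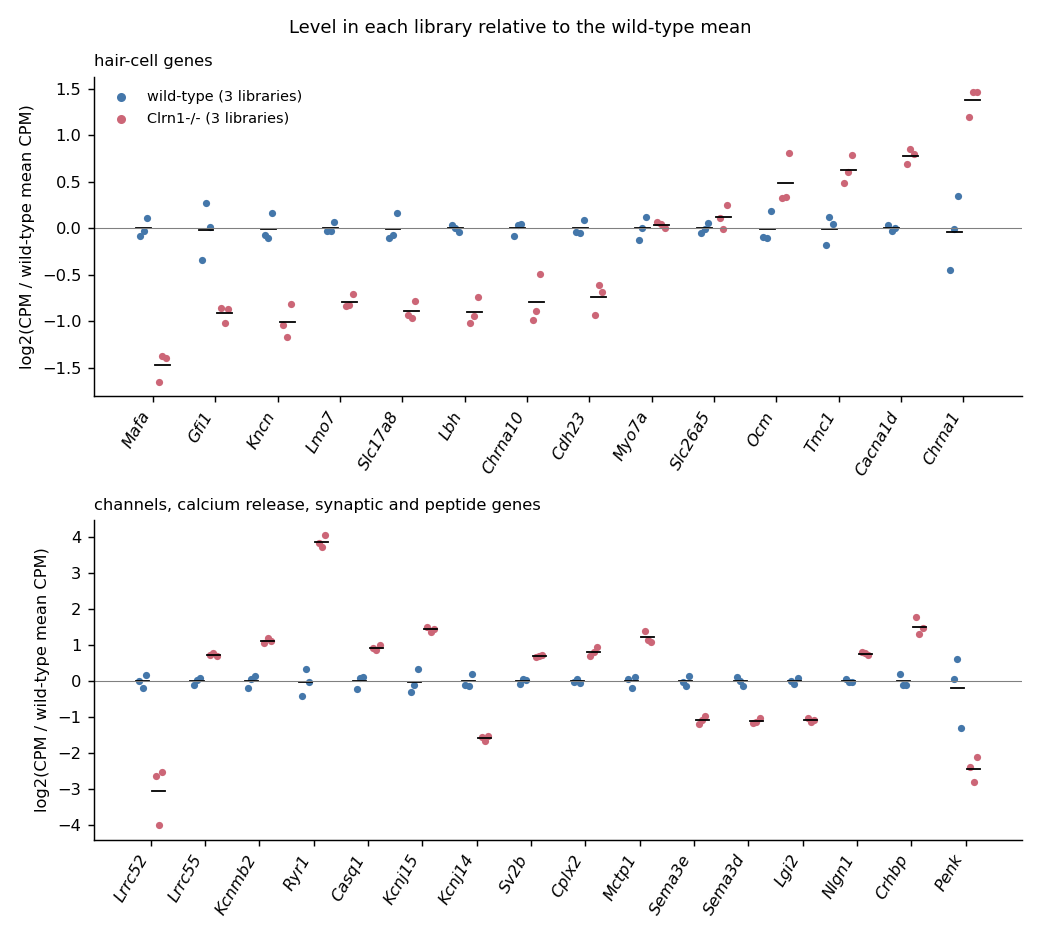
Level of 30 named genes in each of the 3 wild-type (blue) and 3 Clrn1-/- (red) libraries, as log2 of the ratio to the wild-type mean, with a bar at the mean of each genotype. Mafa and Slc17a8 lie below and Cacna1d and Chrna1 above the wild-type values in all 3 Clrn1-/- libraries, while Myo7a and Slc26a5 overlap. Ryr1 and Lrrc52 lie furthest from 0 in the lower panel.

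Of 7 tested subunits of large-conductance calcium-activated potassium channels, 2 were over-expressed and 2 under-expressed, with a median log2 fold change of -0.000175, or 0.0446 with library size scaling alone. One of the under-expressed genes, Lrrc38, had overlapping libraries, at 2.72 ± 0.832 and 1.73 ± 0.0970 CPM, and lost its call in 10 alternatives, among them leaving out any library except wild-type replicate 3. Lrrc52, an auxiliary subunit that lets these channels open at more negative voltage, was at 4.92, 4.33 and 5.59 CPM in wild-type and at 0.791, 0.310 and 0.857 CPM in Clrn1-/- libraries, 0.131 times the wild-type level. Lrrc55, another subunit of that kind, rose from 120.1, 132 and 138 CPM to 214, 223 and 210.5 CPM (1.66-fold, adjusted p = 1.5e-07). Kcnmb2, a subunit that inactivates the channel, rose from 4.72, 5.62 and 5.95 CPM to 11.4, 12.4 and 11.7 CPM (2.18-fold, adjusted p = 1.2e-06). The auxiliary subunits thus did not move one way, with no overlap between genotypes for any of the 3. Of 47 tested calcium channels, stores and pumps, 4 were over-expressed and 1 was under-expressed, or 2 without wild-type replicate 3. Ryr1, the calcium release channel of skeletal muscle, was at 0.309, 0.520 and 0.405 CPM in wild-type and at 5.82, 5.41 and 6.83 CPM in Clrn1-/- libraries, a 14.5-fold increase (adjusted p = 3.5e-09). Casq1, a calcium-binding protein of the sarcoplasmic reticulum, rose from 7.80 ± 0.969 to 14.8 ± 0.664 CPM, and Cacna1h, a low-voltage-activated calcium channel, fell from 10.5 ± 0.978 to 6.47 ± 0.524 CPM. The muscle markers Acta1, Ckm and Mylpf were at 0.577, 0.198 and 1.28 CPM in wild-type and at 0.477, 0.146 and 0.764 CPM in Clrn1-/- libraries, and none of them was called.

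Of 71 other potassium channels, 4 were over-expressed, 5.63%, and 3 under-expressed, 4.23%, near the 3.52% and 3.7% of all tested genes. Kcnj15, an inward rectifier, rose from 2.56 ± 0.587 to 6.92 ± 0.294 CPM, and Kcnj14, another one, fell from 3.55 ± 0.477 to 1.19 ± 0.0683 CPM. Kcne2, a small accessory subunit, rose from 1.21 to 2.57 CPM. Without Clrn1-/- replicate 1 or 2 the under-expressed potassium channels were 1 and not 3, and without wild-type replicate 3 they were 5.

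Genes of vesicle release changed in both directions. Of 38 tested, 5 were over-expressed, 13.2% against 3.52% of all tested genes, and none was under-expressed. The median of the list was -0.0696, and 2 were under-expressed without Clrn1-/- replicate 3 and 1 without wild-type replicate 1. On the adjusted p alone 9 were higher and 10 lower, the latter 26.3% against 13.3% of all tested genes. The summed level was 12600 to 13600 CPM in wild-type and 12000 to 12300 CPM in Clrn1-/- libraries, without overlap. Sv2b, a synaptic vesicle glycoprotein, was at 121, 133 and 130.4 CPM in wild-type and at 204, 206 and 210.4 CPM in Clrn1-/- libraries (1.61-fold, adjusted p = 1.1e-07). Cplx2, a complexin that controls vesicle fusion, rose from 17.5 ± 0.608 to 30.9 ± 2.79 CPM, and Mctp1, a calcium-binding protein of presynaptic membranes, from 15.8 ± 1.78 to 36.9 ± 4.26 CPM. All 3 were higher in every Clrn1-/- library. Of 89 genes of synaptic adhesion and axon guidance, 4 were over-expressed and 4 under-expressed, 4.49% each, near the 3.52% and 3.7% of all tested genes. On the adjusted p alone 32 were higher and 14 lower, against 13.6% and 13.3% of all tested genes. Sema3e, a secreted guidance cue, was at 225, 209 and 249.9 CPM in wild-type and at 99.4, 108 and 116 CPM in Clrn1-/- libraries, 0.473 times the wild-type level (adjusted p = 1.2e-08). Sema3d, of the same family, fell from 46.8 ± 4.06 to 21.7 ± 1.00 CPM. Lgi2, a secreted protein that binds synaptic receptors of the ADAM family, fell from 248, 236 and 266 CPM to 124, 114 and 117 CPM, and Lrrtm3, a postsynaptic adhesion protein, from 35.1 ± 3.59 to 20.4 ± 1.55 CPM. Nlgn1, a neuroligin of excitatory synapses, rose from 6.22 ± 0.255 to 10.6 ± 0.358 CPM. General neuron genes showed small differences, with 1 of 28 called in each direction, 3.57% each, near the 3.52% and 3.7% of all tested genes. The over-expressed one lost its call in 6 alternatives, among them leaving out any single Clrn1-/- replicate. Without wild-type replicate 3 a second gene was under-expressed. On the adjusted p alone 5 were higher and 10 lower, the latter 35.7% against 13.3% of all tested genes. The summed level was 17800 to 19600 CPM in wild-type and 16100 to 16700 CPM in Clrn1-/- libraries. Tubb3, a neuronal tubulin, was at 573 ± 24.8 and 453 ± 26.2 CPM, and Nefl, a neurofilament, at 2490.0 and 2083 CPM, both with Clrn1-/- libraries below wild-type but under the fold minimum.

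Neuropeptides and peptide hormones had the highest median of all lists described here, 1.07, with 6 of 15 tested genes over-expressed and 2 under-expressed. Pmch, which encodes melanin-concentrating hormone, was at 0.0281, 0.0548 and 0.0253 CPM in wild-type and at 2.28, 1.48 and 2.65 CPM in Clrn1-/- libraries (54.2-fold, adjusted p = 8.8e-07). Crhbp, the binding protein of corticotropin-releasing hormone, was the most abundant of the over-expressed members and rose from 31.0, 25.4 and 25.4 CPM to 93.2, 67.3 and 75.3 CPM (2.88-fold, adjusted p = 1.1e-07). Its lowest Clrn1-/- value was well above its highest wild-type value. Adcyap1, a neuropeptide of the glucagon family, rose from 0.324 to 0.846 CPM, and Gcg, the glucagon precursor, from 1.06 to 2.28 CPM. Penk, the precursor of enkephalins, went down, from 15.9, 23.4 and 6.15 CPM to 2.91, 2.17 and 3.56 CPM (adjusted p = 4.0e-04), with a wide spread among wild-type libraries. Of 78 growth factor ligands, 7 were over-expressed, while 3 were under-expressed, or 5 without Clrn1-/- replicate 2 and 6 without wild-type replicate 3. Fgf8, a ligand of cochlear patterning, rose from 0.0347 ± 0.0384 to 0.953 ± 0.348 CPM, and Gdf6, a bone morphogenetic protein, from 25.2 ± 0.632 to 48.6 ± 6.34 CPM. Inhbb, an activin subunit, fell from 3.47 ± 0.447 to 1.28 ± 0.184 CPM.

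Collagens and genes of the tectorial membrane were over-expressed more often than under-expressed, and matrix proteases were called equally often in both directions. Of 35 tested collagens outside the tectorial membrane, 9 were over-expressed, 25.7%, and none was under-expressed, with a median log2 fold change of 0.238. Col3a1, a fibrillar collagen, was at 175, 171 and 146 CPM in wild-type and at 285, 256 and 269.8 CPM in Clrn1-/- libraries (1.65-fold, adjusted p = 4.4e-06). Col6a3, a chain of the microfibrillar collagen VI, rose from 8.46 ± 1.38 to 17.6 ± 1.53 CPM. Without wild-type replicate 3, 4 collagens were under-expressed, and without Clrn1-/- replicate 2 it was 1. Of 16 genes of the tectorial membrane and otoconia, 4 were over-expressed and 2 under-expressed, with a median of 0.367, and without Clrn1-/- replicate 3 the under-expressed gene was 1. Tectb, beta-tectorin of the tectorial membrane, was at 24.4, 27.5 and 29.0 CPM in wild-type and at 49.9, 54.7 and 71.9 CPM in Clrn1-/- libraries (2.18-fold, adjusted p = 5.3e-06). Otol1, a collagen-like protein of otoconia, rose from 4.35 ± 1.83 to 15 ± 0.717 CPM, and Col2a1, a main collagen of the tectorial membrane and of cartilage, from 539.8 ± 45.0 to 849 ± 79.7 CPM. Otos went the other way, from 1637, 1455 and 2205 CPM to 749, 618 and 706 CPM, 0.391 times the wild-type level (adjusted p = 8.0e-06). It was a member of this list but encodes otospiralin of cochlear fibrocytes, not a protein of the tectorial membrane or otoconia. Of 41 matrix proteases and inhibitors, 4 were over-expressed and 4 under-expressed, the latter being 2 without wild-type replicate 2. Mmp2, a gelatinase, rose from 66.6 ± 6.62 to 173 ± 26.3 CPM, and Plau, the urokinase that activates plasminogen, from 1.07 ± 0.291 to 5.04 ± 0.449 CPM. Mmp23, another matrix metalloproteinase, fell from 3.00 ± 0.292 to 1.47 ± 0.109 CPM, and Adamts3, a procollagen peptidase, from 5.59 ± 0.293 to 3.53 ± 0.176 CPM. Of 20 markers of fibroblasts and fibrocytes, 8 were over-expressed and 4 under-expressed, and their summed level was 1120 to 1330 CPM in wild-type and 1250 to 1380 CPM in Clrn1-/- libraries. Lum, a proteoglycan of collagen fibrils, rose from 81.4 ± 6.44 to 138 ± 15.1 CPM, while Prg4, the lubricin of joints, fell from 42.3 ± 15.5 to 17.0 ± 2.35 CPM. The part of these cells in the matrix differences was not tested.

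Epithelial genes were called as over-expressed more often than as under-expressed. Of 33 claudins and junction genes 7 were over-expressed and none under-expressed, and of 21 keratins and cornified envelope genes 7 and none. Sprr1a, a protein of the cornified envelope, was at 0.197, 0.110 and 0.101 CPM in wild-type and at 1.46, 1.48 and 1.51 CPM in Clrn1-/- libraries (10.8-fold, adjusted p = 2.2e-05). All 3 Clrn1-/- values of Sprr1a lay above the wild-type values. Without wild-type replicate 3, 3 keratin and envelope genes passed the thresholds, without wild-type replicate 2, 1 of them was under-expressed, and without wild-type replicate 2 or 3, 1 junction gene was under-expressed. Of 20 supporting cell markers, 1 was over-expressed and none under-expressed. On the adjusted p alone 10 were higher and 3 lower, against 13.6% and 13.3% of all tested genes. The over-expressed gene was Lgr6, a Wnt co-receptor of supporting cells with progenitor properties, which rose from 4.39 ± 0.185 to 8.68 ± 0.638 CPM. The count of over-expressed markers was 3 without wild-type replicate 3 and 2 without wild-type replicate 2 or Clrn1-/- replicate 1. Sox2, a factor that supporting cells retain, was at 34.0 and 37.9 CPM, and Gjb2, the main connexin of their gap junctions, at 431 ± 39.0 and 350.1 ± 27.8 CPM, below the fold minimum. Of 64 genes of motile cilia, 4 were called in each direction, 6.25% each against 3.52% and 3.7% of all tested genes. Without wild-type replicate 2, 10 of them were over-expressed. Cfap161 fell from 12.4 ± 1.44 to 2.94 ± 0.336 CPM, and Cfap54, which encodes another axonemal protein, rose from 1.07 ± 0.171 to 5.49 ± 0.766 CPM.

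**Figure D3:**
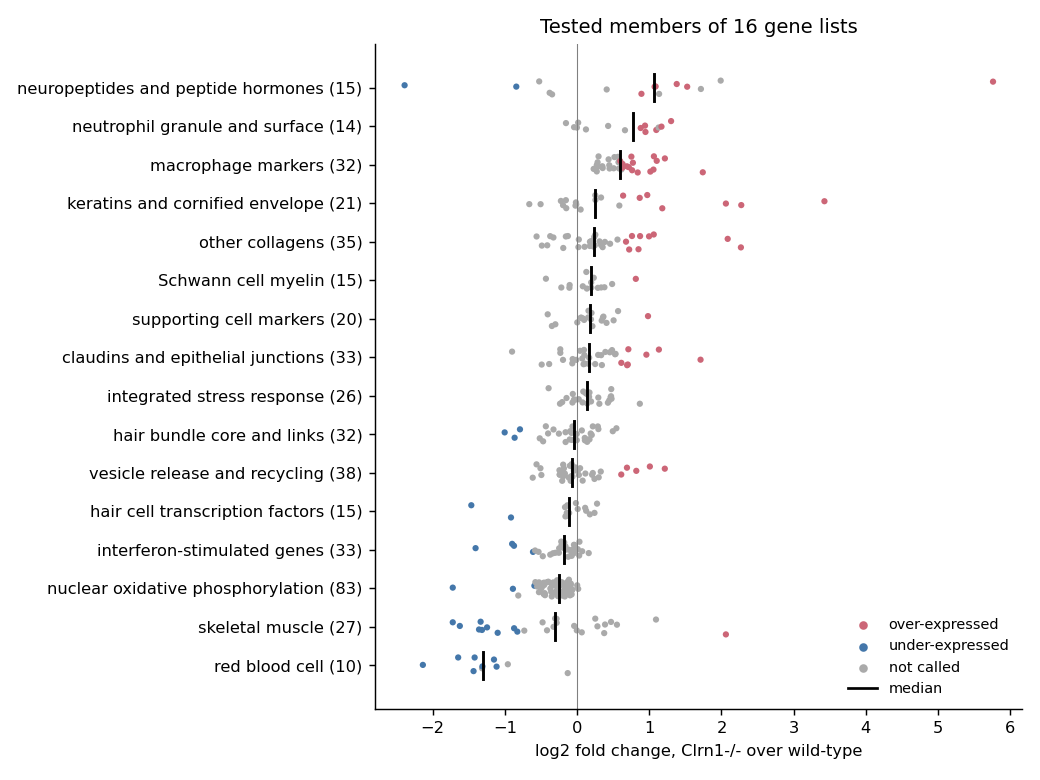
Log2 fold change of each tested member of 16 gene lists in Clrn1-/- relative to wild-type mice, with over-expressed genes in red, under-expressed genes in blue, uncalled genes in grey and the median of each list as a black bar. Numbers in parentheses are the genes tested. All macrophage markers lie to the right of 0, and 81 of 83 genes of oxidative phosphorylation lie to the left.

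Macrophage markers rose together. Of 32 tested markers, 15 were over-expressed, 46.9% against 3.52% of all tested genes, and none was under-expressed. All 32 had a positive log2 fold change, and the median was 0.589. For 25 of them the Clrn1-/- libraries lay above all wild-type libraries, which held for 20.5% of all tested genes. Lyz2, the lysozyme of myeloid cells, was at 29.8, 27.9 and 24.0 CPM in wild-type and at 68.5, 62.1 and 59.0 CPM in Clrn1-/- libraries (2.32-fold, adjusted p = 3.2e-08). Ccr2, the chemokine receptor of recruited monocytes, rose from 0.767 ± 0.189 to 1.65 ± 0.237 CPM, Adgre1, which encodes the F4/80 antigen, from 6.23 ± 0.596 to 10.2 ± 0.897 CPM, and Siglec1, a sialic acid receptor, from 2.50 ± 0.847 to 5.21 ± 1.26 CPM. Cx3cr1, the fractalkine receptor of resident macrophages, was at 18.9 ± 3.83 and 26.9 ± 1.75 CPM, and Csf1r, the receptor macrophages need to survive, at 47.7 ± 6.17 and 60.7 ± 2.88 CPM. Both were higher in all Clrn1-/- libraries but under the fold minimum. The summed level of the 32 markers was 285 to 368 CPM in wild-type and 481 to 535 CPM in Clrn1-/- libraries, and 11 to 21 of them were over-expressed when 1 library was left out.

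Of 14 tested genes of neutrophil granules and surface, 6 were over-expressed, with a summed level of 13.4 to 33.1 CPM in wild-type and 43.6 to 47.5 CPM in Clrn1-/- libraries. S100a9, a calprotectin subunit with an adjusted p of 0.0443, was at 6.63, 5.86 and 2.12 CPM in wild-type and at 9.81, 8.54 and 9.56 CPM in Clrn1-/- libraries. Its call was lost with DESeq2, without any single Clrn1-/- replicate and without wild-type replicate 3, where the log2 fold change of S100a9 was 0.57. Camp, which encodes the antimicrobial cathelicidin, rose from 1.30 ± 0.276 to 3.20 ± 0.384 CPM. The count was fragile, with 1 gene over-expressed without Clrn1-/- replicate 1 or without wild-type replicate 3, 3 without Clrn1-/- replicate 2 or 3, and 2 with DESeq2. Of 30 MHC presentation genes none was called by edgeR, DESeq2 or limma-voom, while 4 were higher on the adjusted p alone, 10 were higher and none lower at an unadjusted p under 0.05, and 1 was over-expressed without Clrn1-/- replicate 3 or wild-type replicate 2.

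**Figure D4:**
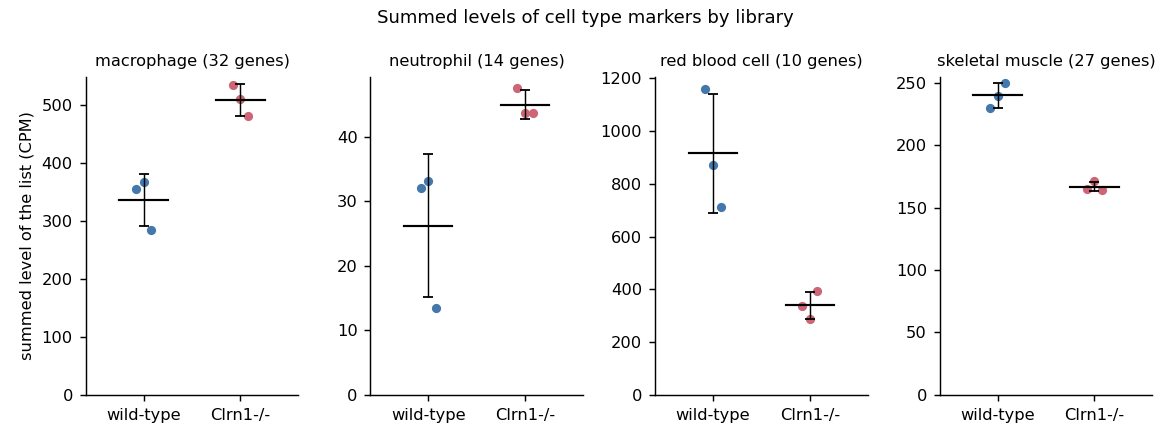
Summed level (CPM) of the tested markers of macrophages, neutrophils, red blood cells and skeletal muscle in each library, with the mean and SD of 3 libraries per genotype. Macrophage and neutrophil sums are higher and red blood cell and muscle sums lower in all 3 Clrn1-/- libraries than in any wild-type library.

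Interferon-stimulated genes were lower where they were called, and complement genes were split. Of 33 interferon-stimulated genes, none was over-expressed and 4 were under-expressed, 12.1% against 3.7% of all tested genes. A negative log2 fold change was found for 28, and the median was -0.183. On the adjusted p alone 5 were lower, 15.2% against 13.3% of all tested genes. The summed level of the list overlapped, at 550 to 705 CPM in wild-type and 514 to 609 CPM in Clrn1-/- libraries. Isg20, an antiviral exonuclease, was at 5.48, 3.81 and 3.39 CPM in wild-type and at 1.49, 1.24 and 2.03 CPM in Clrn1-/- libraries (0.377 times, adjusted p = 2.1e-04). Gbp6, a guanylate-binding protein, fell from 3.29 ± 0.860 to 1.74 ± 0.340 CPM. Wild-type replicate 1 held the highest wild-type values of both, and without it 2 genes of the list were under-expressed. The Ifi200 family, a cluster of DNA sensors on chromosome 1, was split, with 3 of 11 over-expressed and 6 under-expressed. Mndal fell from 5.59, 5.42 and 4.50 CPM to 0.158, 0.129 and 0.0779 CPM, 0.0238 times the wild-type level. Ifi203 fell from 7.50 ± 1.14 to 1.91 ± 0.404 CPM, while Aim2, the sensor of cytosolic DNA, rose from 1.14 ± 0.299 to 2.10 ± 0.429 CPM. Members of this family resemble each other, and reads may be divided between them with error. Of 24 complement and acute phase genes, 7 were over-expressed and 5 under-expressed. Masp2, a protease that starts the lectin pathway, rose from 0.187 ± 0.0461 to 1.58 ± 0.516 CPM. A2m, a protease inhibitor, fell from 109, 108 and 144 CPM to 56.4, 56.1 and 54.5 CPM (0.462 times, adjusted p = 1.6e-06), and C1ra, a protease of the classical pathway, from 4.62 ± 0.596 to 2.44 ± 0.145 CPM.

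Red blood cell markers were lower in Clrn1-/- libraries, and skeletal muscle genes were more often lower than higher. Of 10 tested red blood cell genes, 7 were under-expressed, with a median of -1.31. Hbb-bs, a beta globin, was at 662, 472 and 408 CPM in wild-type and at 186, 163 and 228 CPM in Clrn1-/- libraries (0.374 times, adjusted p = 3.5e-05). Alas2, the heme synthesis enzyme of erythroid cells, fell from 35.7 ± 9.38 to 11.4 ± 1.29 CPM. The summed level was 713 to 1160 CPM in wild-type and 289 to 393 CPM in Clrn1-/- libraries, without overlap, and the part of blood in other differences was not tested. Of 27 tested skeletal muscle genes, 9 were under-expressed and 1 over-expressed, while 18 had a negative and 9 a positive log2 fold change. The Clrn1-/- libraries lay entirely below wild-type for 11 of them and entirely above for 6. Ttn, the giant spring of sarcomeres, fell from 18.3, 17.8 and 15.8 CPM to 6.83, 6.70 and 6.99 CPM (0.396 times, adjusted p = 8.6e-08), and Pygm, the glycogen phosphorylase of muscle, from 71.4 ± 3.70 to 28.6 ± 2.68 CPM. Tcap, a protein of the sarcomere's Z-disc, fell from 17.3 ± 5.19 to 5.57 ± 1.40 CPM. Myl1, a myosin light chain of fast muscle, rose instead, from 8.68, 8.85 and 10.9 CPM to 42.7, 39.6 and 36.6 CPM (4.17-fold, adjusted p = 1.1e-09). The summed level of the list was 230 to 250 CPM in wild-type and 164 to 171 CPM in Clrn1-/- libraries, without overlap, while the defining markers Acta1 and Ckm were under 1 CPM in every library. The part of muscle RNA in other differences was not tested.

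Glial and pigment genes differed by list. Of 15 Schwann cell myelin genes 1 was over-expressed, 6.67% against 3.52% of all tested genes, and none under-expressed. On the adjusted p alone 9 were higher and 1 lower, against 13.6% and 13.3% of all tested genes, with a median log2 fold change of 0.195. Their summed level overlapped, at 23200 to 24300 CPM in wild-type and 23200 to 24000 CPM in Clrn1-/- libraries. The over-expressed gene was Gldn, which encodes gliomedin of the nodes of Ranvier and rose from 154 ± 14 to 270.0 ± 19.7 CPM. Of 9 oligodendrocyte markers 2 were under-expressed. Ermn, a cytoskeletal protein of oligodendrocytes, fell from 75.0 ± 19.2 to 43.9 ± 6.35 CPM, and Klk6, a protease of these cells, from 33.2 ± 5.41 to 15.9 ± 2.92 CPM. The summed levels of the oligodendrocyte list overlapped, at 852 to 1360 CPM in wild-type and 619 to 909 CPM in Clrn1-/- libraries. Of 12 melanocyte genes 3 were over-expressed and 1 was under-expressed. The under-expressed one, the channel gene Trpm1, was at 0.831 ± 0.503 and 0.184 ± 0.0267 CPM and lost its call without Clrn1-/- replicate 2 or wild-type replicate 2, and a second gene was under-expressed without wild-type replicate 3. Tyrp1, a melanosomal enzyme, rose from 0.707 ± 0.0604 to 1.59 ± 0.130 CPM, and Mreg, which acts in melanosome transport, from 17.2 ± 1.23 to 28.4 ± 1.07 CPM. Pmel, a protein of the fibrils of melanosomes, was at 2.36, 3.51 and 4.07 CPM in wild-type and at 31.3, 27.1 and 25.7 CPM in Clrn1-/- libraries (8.40-fold, adjusted p = 8.1e-09). The melanocyte markers Dct and Tyr varied among libraries of both genotypes, Dct from 12.2 to 60.5 CPM in wild-type and from 8.36 to 34.6 CPM in Clrn1-/- libraries, and neither was called. Ptgds, the prostaglandin D synthase of leptomeninges and one of the most abundant genes, fell from 8402, 8976 and 7168 CPM to 4656, 5306 and 4489 CPM (0.589 times, adjusted p = 4.6e-05). Padi2, an enzyme that citrullinates proteins, rose from 231, 236 and 245 CPM to 484, 461 and 457 CPM (1.97-fold, adjusted p = 2.1e-10).

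Nuclear genes of oxidative phosphorylation were lower by small steps, and genes of glycolysis and glucose use changed in both directions. Of 83 nuclear genes of oxidative phosphorylation, 3 passed both thresholds as under-expressed and none as over-expressed, but 81 had a negative log2 fold change. The adjusted p alone called 62 of them lower, 74.7%, against 13.3% of all tested genes, and called none higher. Their median was -0.252 and their summed level 12200 to 13200 CPM in wild-type and 10400 to 11200 CPM in Clrn1-/- libraries. Cox8b, the muscle form of a cytochrome oxidase subunit, was at 18.3, 21.0 and 20.8 CPM in wild-type and at 6.93, 4.81 and 6.54 CPM in Clrn1-/- libraries (0.303 times, adjusted p = 5.5e-07). Ndufs5, a subunit of complex I, fell from 46.4 ± 2.17 to 25.2 ± 5.40 CPM, and without wild-type replicate 1 the under-expressed genes were 6 and not 3. Of 36 genes of glycolysis and glucose use, 4 were over-expressed and 5 under-expressed, and 10 had a positive and 26 a negative log2 fold change. Gapdh, a glycolytic enzyme often taken as an internal control in PCR, was at 1002, 1012 and 1063 CPM in wild-type and at 558, 619 and 665 CPM in Clrn1-/- libraries, 0.599 times the wild-type level (adjusted p = 2.6e-07). Eno1, an enolase, fell from 506 ± 4.03 to 272 ± 9.85 CPM, while its near-identical copy Eno1b rose from 4.40 ± 0.184 to 23.3 ± 5.37 CPM. Summed over both enolase genes, which may share reads, the level was 510 ± 4.18 and 295 ± 12.7 CPM. Fbp2, the fructose bisphosphatase of muscle, rose from 0.903 ± 0.301 to 3.87 ± 0.322 CPM.

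Genes that share sequence with copies elsewhere held some of the largest changes, and their reads may be assigned with error. Of 86 tested ribosomal protein genes, 2 were over-expressed and 8 under-expressed. Rps3a1 was at 176, 179 and 192 CPM in wild-type and at 45.1, 38.0 and 40.6 CPM in Clrn1-/- libraries, while the processed pseudogene Rps3a3 on another chromosome was at 1.21, 1.04 and 1.16 CPM and at 80.1, 76.6 and 83.8 CPM. Summed with Rps3a2, the family was at 191 ± 9.75 CPM in wild-type and 143 ± 6.20 CPM in Clrn1-/- mice, so the opposite changes of the copies were far larger than that of their sum. Rpl29 fell from 111, 112 and 109 CPM to 7.88, 7.22 and 7.77 CPM. Among 848 tested processed pseudogenes, 46 were over-expressed, 5.42%, and 60 under-expressed, 7.08%, and 12 of them rose at least 10-fold. Gm13394, a processed pseudogene named after its values were seen, went from 0.0562, 0.110 and 0.152 CPM to 81.2, 77.7 and 74.0 CPM. The nuclear copies of mitochondrial transcripts Gm28437, Gm29216, Gm28439, Gm4076 and Gm13339 were under-expressed, with a summed level of 16151 ± 719 CPM in wild-type and 10164 ± 1005 CPM in Clrn1-/- libraries. The call of Gm28437 was lost with library size scaling alone, without Clrn1-/- replicate 1 or 2 and without wild-type replicate 2 or 3. Reads on these copies can come from the mitochondrial transcripts themselves.

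Immediate-early genes were more often higher than lower in Clrn1-/- libraries. They are transcribed within minutes of a stimulus such as calcium entry or a growth factor, and Fos and Fosb encode partners of the AP-1 transcription factor. Of 27 tested genes, 6 were over-expressed, 22.2%, and 1 was under-expressed, with a median of 0.247. The upstream 250 bases of the Fos and Fosb promoters are shown because both genes rose and were covered by the RefSeq promoter table (GRCm38.p6). Capitals mark the letters TGACG, part of the site bound by the cyclic AMP response factor, searched on both strands.

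Fos, plus strand of chr12:85473640-85473889: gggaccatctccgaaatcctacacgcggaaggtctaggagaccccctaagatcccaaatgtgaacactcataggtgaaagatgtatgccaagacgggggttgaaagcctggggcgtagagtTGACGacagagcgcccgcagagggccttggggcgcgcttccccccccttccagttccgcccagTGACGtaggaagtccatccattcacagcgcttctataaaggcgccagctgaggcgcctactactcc

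Fosb, minus strand of chr7:19310046-19310295: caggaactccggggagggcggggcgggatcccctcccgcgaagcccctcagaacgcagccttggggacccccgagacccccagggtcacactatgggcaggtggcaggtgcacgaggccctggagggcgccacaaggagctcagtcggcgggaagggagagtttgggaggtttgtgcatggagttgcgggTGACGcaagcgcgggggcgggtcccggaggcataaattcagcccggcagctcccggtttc

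The letters began 129 and 66 bases before the start of Fos and 60 bases before that of Fosb. They were found in 17.8% of 32851 promoters of the same length, and 2 or more times, as in Fos, in 3.9%. Their presence here is a description and not a site. Fos was at 5.20, 4.68 and 3.67 CPM in wild-type and at 13.4, 8.62 and 9.22 CPM in Clrn1-/- libraries (2.30-fold, adjusted p = 8.0e-05). Fosb was at 0.478, 0.301 and 0.886 CPM in wild-type and at 6.14, 3.23 and 2.23 CPM in Clrn1-/- libraries (6.75-fold, adjusted p = 0.00225). For both genes Clrn1-/- replicate 1 was the highest, and no library overlapped with the other genotype. Gem, a small GTPase induced by stimulation, rose from 1.99 ± 0.221 to 3.53 ± 0.300 CPM. Klf2, a factor of endothelial cells that responds to blood flow, fell from 52.9, 41.1 and 43.3 CPM to 22.2, 24.2 and 21.8 CPM (0.497 times, adjusted p = 1.3e-06).

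Cell death and stress genes differed by list. Of 17 BCL2 family genes, 2 were over-expressed, 11.8% against 3.52% of all tested genes, and 1 was under-expressed, 5.88% against 3.7%. On the adjusted p alone 7 were higher and 1 lower. Bcl2l11, which encodes the proapoptotic BIM, was at 20.1, 20.2 and 20.2 CPM in wild-type and at 34.9, 34.0 and 36.1 CPM in Clrn1-/- libraries (1.74-fold, adjusted p = 2.0e-08). Hrk, another proapoptotic member, was at 10.7 ± 1.69 and 14.8 ± 0.864 CPM and remained under the fold minimum, and Bik was at 3.99 and 4.43 CPM with overlapping libraries. Without Clrn1-/- replicate 3, 1 gene was over-expressed and none under-expressed, and without wild-type replicate 2 none was under-expressed. Of 26 integrated stress response genes edgeR, DESeq2 and limma-voom called none past both thresholds, 7 were higher and 2 lower on edgeR's adjusted p alone, and 11 and 2 at an unadjusted p under 0.05. Of 33 antioxidant enzymes 1 was called in each direction, 3.03% each, near the shares of all tested genes. The over-expressed one was Gpx6 described above, at a 21.2-fold higher level, and the under-expressed one was lost without Clrn1-/- replicate 2.

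Called genes were found on every autosome, from 4.6% of the tested genes of chromosome 16 to 11.2% of those of chromosome 1. In windows of 2 Mb, the largest number of called genes lay on chromosome 1 from 172000001 to 174000000, where 14 of 35 tested genes were called, among them Casq1, Atp1a4, Aim2, Mndal and Ifi202b. On chromosome 13 from 66000001 to 68000000, 11 of 38 were called, among them the zinc finger genes Zfp457 and Zfp459, and on chromosome 4 from 146000001 to 148000000, 7 of 24, with Zfp982, Zfp985 and Zfp991. The window of chromosome 6 from 124000001 to 126000000 held 8 called genes of 51, among them C1ra, C1s1, Cd4 and Gapdh. Genes listed here by window were named after their values were seen. Genes within a window did not change one way, with 6 over-expressed and 8 under-expressed in the first. Zfp982 fell from 2.06 ± 0.439 to 0.239 ± 0.135 CPM, and zinc finger genes of such clusters resemble each other, so their reads may be divided with error.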

How the data were processed

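RNA-seq counts of 12 libraries of mouse organ of Corti were used, 3 of each of 4 genotypes. Per the labels and the study's methods, the authors aligned strand-specific paired reads to GRCm38 and deposited raw counts per gene from STAR, of which the reverse-strand column was used here. Rows that name no gene held 13.75% to 14.78% of the reads of the 6 libraries compared and were left out. Gene names and types came from the Gencode annotation of the same build.

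edgeR 4.0.16 in R 4.3.3 fitted genotype to all 12 libraries (filterByExpr with a minimum count of 10, TMM scaling, quasi-likelihood test, 8 residual degrees of freedom). The other 6 libraries thus contributed to the filter, the scaling and the estimate of spread, and did not enter the contrast. The contrast was Clrn1-/- minus wild-type, and the common coefficient of variation was 6.15%. Gene lists were described by counts and medians. Members and lists were chosen with earlier results of these data known. Named genes were Clrn1 and Clrn2, the largest changes without overlap above 1 CPM, the most abundant called genes, up to 4 called genes per direction and list, genes the study names, called genes within 10 Mb of Clrn1 and fixed cell type markers, with exceptions marked in the text. Scripts were tested on simulated data. Alternatives were DESeq2 1.42.0, limma-voom (limma 3.58.1), library size scaling, other filters, unstranded counts, the 2 genotypes alone, a replicate block and leaving out each library. Some genes are not reported here.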

Additional observations from a re-analysis of the deposited data

How the results depend on the processing

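The counts of over- and under-expressed genes stayed within 1.5 times of 670 and 705 under every alternative except the one without a fold minimum, which gave 2593 and 2537. DESeq2 gave 589 and 617, limma-voom 674 and 683, library size scaling 762 and 624, and the test without a filter 776 and 860. Leaving out 1 library gave counts of 585 to 690 and of 607 to 787. Replicate numbers were not taken to pair the libraries, since the deviations of same-numbered libraries correlated at 0.261, 0.126 and 0.0924, although each library correlated best with its own number. A replicate block gave 661 and 697 calls over 12 libraries, and 588 and 617 over the 2 genotypes, against 581 and 618 without it. With 3 libraries per genotype the smallest changes could not be resolved, and p-values cover the spread between these libraries only. For 4 uncalled markers the sign depended on single libraries: when 1 library was left out, the log2 fold change of Ckm ran from -0.772 to 0.0293, the log2 fold change of Acta1 from -0.691 to 0.315, the log2 fold change of Tyr from -0.521 to 0.275 and the log2 fold change of Myo7a from -0.0195 to 0.0962.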
